A study of Mus musculus with 8 samples.

Results

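The genes described here encode the p38 MAP kinases and the kinases directly around them. They were the p38 isoforms Mapk11 (p38β), Mapk12 (p38γ) and Mapk14 (p38α), the activating kinases Map2k3 (MKK3) and Map2k6 (MKK6), and Mapkapk2 (MK2), a kinase that p38 switches on. They made up 6 of the 54532 genes listed in the count table, and all 6 passed the filter on low counts among the 17195 genes tested. Mapk11 was selected on its lower counts in Adrb1+/m;PS19 mice in these same samples, so its genotype difference is given as a description with no p-value. The other 5 genes were taken with it by their roles.

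Bulk RNA was sequenced from the cortex of 8 C57BL/6 mice, 4 PS19 mice and 4 Adrb1+/m;PS19 mice, all 8 months old. The study's methods name male mice for its experiments unless noted otherwise. Both genotypes carried the PS19 transgene, in which the prion promoter of the mouse drives P301S human tau, a mutant found in familial dementia, so tau was overexpressed in every animal and no mouse without the transgene was compared here. The Adrb1+/m;PS19 mice also carried 1 knock-in copy of Adrb1-A187V, a mutant of the β1-adrenergic receptor, which responds to noradrenaline. The comparison therefore asked which cortical transcripts differed when 1 mutant receptor allele was added to the tau model.

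p38 kinases are stress-activated protein kinases. Upstream kinases phosphorylate and activate MKK3 and MKK6, these phosphorylate p38, and p38 acts on transcription factors and on kinases such as MK2, which stabilises the mRNAs of inflammatory cytokines. In brain the pathway is known for cytokine production by microglia and for stress signalling and synaptic plasticity in neurons, and p38 isoforms can phosphorylate tau. All of these steps run through phosphorylation, which RNA counts do not measure.

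Mapk11 and Mapk12 lie next to each other on chromosome 15 in GRCm38, the build of the count table. Mapk11 (ENSMUSG00000053137) spans chr15:89142486-89149628 and Mapk12 (ENSMUSG00000022610) spans chr15:89130584-89140703, both on the minus strand with 1782 bases between them. Mapk14 (ENSMUSG00000053436) is on the plus strand of chr17:28691329-28748406. The promoters of these 3 isoforms are printed because the neighbours Mapk11 and Mapk12 share a locus but not their levels, and because Mapk14 was the most abundant isoform. Each line gives the 250 bases before a RefSeq transcript start in GRCm38.p6 (for Mapk14, the more upstream of 2), read 5′ to 3′ on the gene's strand. The windows are chr15:89149607-89149856 for Mapk11, chr15:89140704-89140953 for Mapk12 and chr17:28691092-28691341 for Mapk14. Capitals mark a GC box (GGGCGG or CCGCCC on the other strand), the core of a cAMP response element (TGACG or CGTCA), an E-box (CACGTG) or a CCAAT box (CCAAT or ATTGG).
Mapk11: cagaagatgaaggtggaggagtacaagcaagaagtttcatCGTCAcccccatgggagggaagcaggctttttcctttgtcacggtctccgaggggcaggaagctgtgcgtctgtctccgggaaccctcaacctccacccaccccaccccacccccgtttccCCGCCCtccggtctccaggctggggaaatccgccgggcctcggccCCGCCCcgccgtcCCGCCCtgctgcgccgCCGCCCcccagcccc
Mapk12: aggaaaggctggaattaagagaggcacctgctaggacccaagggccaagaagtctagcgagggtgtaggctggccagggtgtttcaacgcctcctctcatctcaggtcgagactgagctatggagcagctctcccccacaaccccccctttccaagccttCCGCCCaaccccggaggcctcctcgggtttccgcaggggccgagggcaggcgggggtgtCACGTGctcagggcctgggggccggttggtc
Mapk14: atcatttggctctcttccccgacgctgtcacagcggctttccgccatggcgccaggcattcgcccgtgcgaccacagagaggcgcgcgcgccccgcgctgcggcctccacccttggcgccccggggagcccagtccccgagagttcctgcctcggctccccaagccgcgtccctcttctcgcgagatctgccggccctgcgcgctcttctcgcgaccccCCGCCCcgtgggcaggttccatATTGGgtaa

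The Mapk11 window held 4 GC boxes and 1 cAMP response element core, and its GC content was 68.0%. The Mapk12 window held 1 GC box and 1 E-box at a GC content of 64.4%. The Mapk14 window held 1 GC box and 1 CCAAT box at 70.4%. Among 32851 RefSeq promoter windows of this length, 32.7% held a GC box, 17.8% the cAMP response element core, 6.02% the E-box and 33.8% a CCAAT box, and the median GC content was 52.4%. All 3 windows were thus richer in GC than the median window. RefSeq holds a second start for Mapk14, whose window at chr17:28692318-28692567 had 48.4% GC, below the median, and none of these motifs. The full cAMP response element TGACGTCA, present in 1.55% of windows, and the AP-1 site TGACTCA, present in 4.46%, matched none of these 3 windows on either strand. A match is a description of letters in the window. The last 22 bases of the Mapk11 window lie inside the Mapk11 gene as the count table bounds it, because that table starts the gene 22 bases upstream of the RefSeq start. For Mapk14 the same holds of the last 13 bases of its window, which include its marked CCAAT box.

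The libraries held 14653222 to 21223754 counts assigned to genes. Levels are given as CPM, a gene's counts relative to the whole library, after scaling each library by edgeR's TMM factor, which was between 0.99 and 1.01. Over all genes, edgeR's quasi-likelihood test gave an unadjusted p under 0.05 for 481 of 17195 genes (2.80%), of which 236 were lower in Adrb1+/m;PS19 mice (1.37%) and 245 higher (1.42%). After Benjamini-Hochberg adjustment no gene was called (0%), the smallest adjusted p in edgeR being 0.9996. DESeq2 and limma-voom also called 0 genes after adjustment. At an unadjusted p under 0.05 they had 555 of 33614 genes and 492 of 17195 genes, so the DESeq2 count is from a larger set. The point mutation itself cannot be checked from gene counts: Adrb1 was measured at 32.3 to 41.2 CPM in PS19 mice and 30.7 to 39.5 CPM in Adrb1+/m;PS19 mice.

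Mapk11 was at a lower level in each of the 4 Adrb1+/m;PS19 mice than in any PS19 mouse, by which it had been chosen. In the PS19 mice m677, m668, m665 and m659 its level was 47.7, 48.8, 49.6 and 46.7 CPM. In the Adrb1+/m;PS19 mice m671, m661, m660 and m658 it was 39.8, 44.3, 39.0 and 38.6 CPM. The highest mutant mouse, m661, thus lay below the lowest PS19 mouse, m659, and the other 3 mutant mice lay close together beneath it. The means were 48.2 ± 1.28 CPM in PS19 mice and 40.4 ± 2.65 CPM in Adrb1+/m;PS19 mice (SD, n = 4 each), a ratio of 0.839 and a log2 fold change of -0.25 (SE 0.0627). In 172 of 17195 tested genes (1.0%) the 2 genotypes did not overlap with the mutant mice lower, and Mapk11 was one of these by selection, so nothing is read from it. The coefficient of variation of Mapk11 was 2.65% in PS19 mice and 6.57% in Adrb1+/m;PS19 mice, against 3.57% from counting alone at its mean of 785 counts. Here, as in any bulk tissue, fewer cells that express a gene and less of its RNA per cell cannot be told apart.

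**Figure D1:**
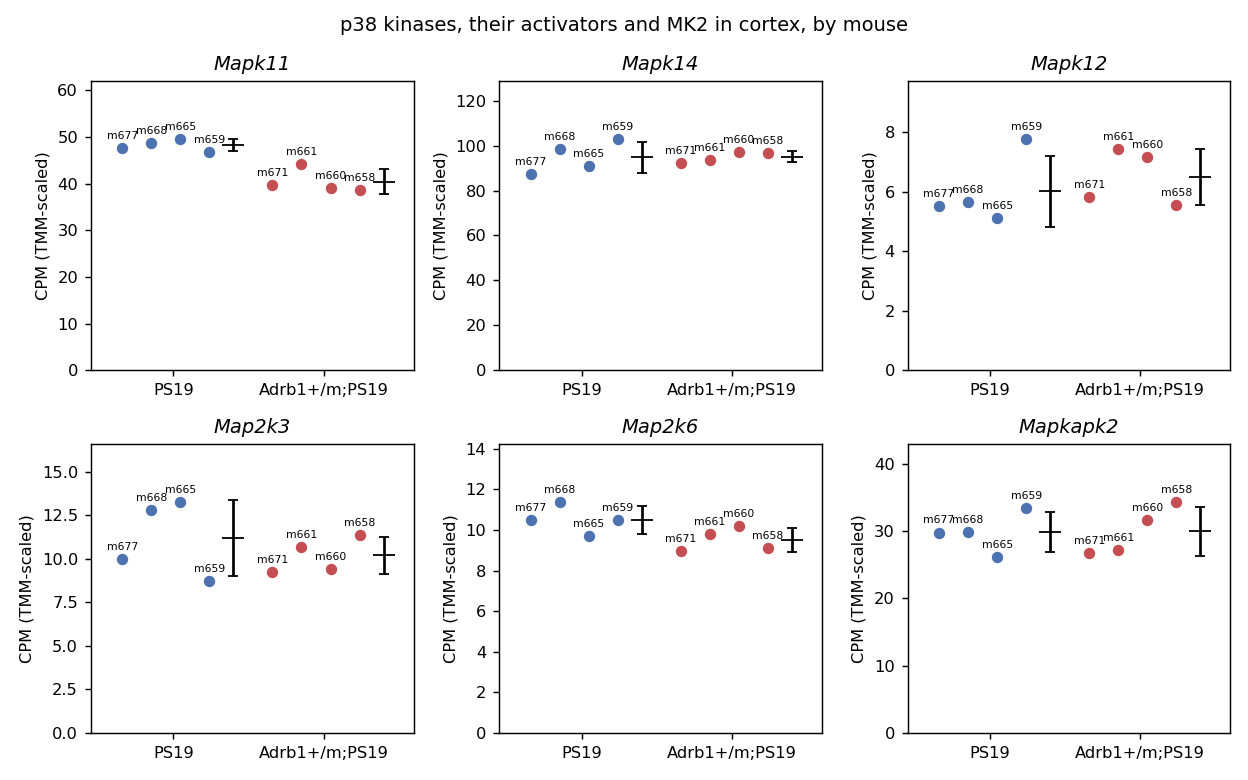
TMM-scaled CPM of the 6 genes in each mouse, with PS19 mice in blue, Adrb1+/m;PS19 mice in red, and the mean ± SD (n = 4) of each genotype as black bars. Mapk11, chosen for this difference, is lower in every mutant mouse, and the genotypes overlap for the other 5 genes.

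Mapk14 encodes p38α, the isoform best known for driving cytokine production, and its mean level was nearly the same in both genotypes. It was measured at 87.5, 98.4, 90.7 and 103 CPM in the PS19 mice m677, m668, m665 and m659. The Adrb1+/m;PS19 mice m671, m661, m660 and m658 had 92.3, 93.8, 97.2 and 96.8 CPM. All 4 mutant mice fell inside the range of the PS19 mice. The means of 94.8 ± 6.99 and 95.1 ± 2.38 CPM gave a log2 fold change of 0.0036 (SE 0.0593; edgeR adjusted p = 0.9996), with a 95% interval of the ratio from 0.918 to 1.1. The exact permutation p of the difference was 0.914, two-sided, where 4 mice against 4 can reach no less than 0.0286. The coefficient of variation of Mapk14 was 7.37% in PS19 mice and 2.5% in mutant mice.

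Mapk12 encodes p38γ, an isoform that can phosphorylate tau, and it was a low transcript whose genotypes overlapped. The PS19 mice m677, m668, m665 and m659 had 5.51, 5.66, 5.10 and 7.77 CPM of Mapk12. The Adrb1+/m;PS19 mice m671, m661, m660 and m658 had 5.82, 7.42, 7.17 and 5.55 CPM. A single PS19 mouse, m659, was the highest of all 8, and the mean was higher in mutant mice, 6.49 ± 0.943 against 6.01 ± 1.20 CPM. The log2 fold change was 0.12 (SE 0.168; edgeR adjusted p = 0.9996; exact permutation p = 0.514). With about 111 counts a library the 95% interval of the ratio ran from 0.844 to 1.39.

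The remaining isoform, Mapk13 (p38δ), is not among the 6 genes and was the lowest isoform. It had 12 to 33 counts a library, 0.85 to 1.99 CPM in PS19 mice and 0.679 to 1.14 CPM in Adrb1+/m;PS19 mice. Its log2 fold change of -0.50 (SE 0.33; edgeR adjusted p = 0.9996) did not pass the test.

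The activators Map2k3 and Map2k6 encode MKK3 and MKK6, which phosphorylate p38, and both had lower means in Adrb1+/m;PS19 mice without passing the test. Map2k3 was at 10, 12.8, 13.3 and 8.73 CPM in the PS19 mice m677, m668, m665 and m659. It was at 9.24, 10.7, 9.40 and 11.4 CPM in the Adrb1+/m;PS19 mice m671, m661, m660 and m658. The PS19 mice spanned the whole range, with m668 and m665 above and m659 below all mutant mice. The means were 11.2 ± 2.20 and 10.2 ± 1.04 CPM, and the 95% interval of the log2 fold change of -0.14 ran from -0.45 to 0.16 (SE 0.142; edgeR adjusted p = 0.9996; exact permutation p = 0.457).

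Map2k6 had 10.5, 11.4, 9.68 and 10.5 CPM in the PS19 mice m677, m668, m665 and m659. The Adrb1+/m;PS19 mice m671, m661, m660 and m658 had 8.94, 9.82, 10.2 and 9.11 CPM. PS19 mouse m665 lay below m661 and m660, so the genotypes overlapped, although the other 3 PS19 mice lay above all mutant mice. The means were 10.5 ± 0.700 and 9.51 ± 0.589 CPM, and the log2 fold change was -0.14 with a 95% interval from -0.37 to 0.09 (SE 0.106; edgeR adjusted p = 0.9996; exact permutation p = 0.0857). The spread of Map2k6 within genotypes, 6.65% and 6.19%, was below the 7.52% that counting alone gives at 177 counts a library.

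Mapkapk2 encodes MK2, the kinase through which p38 acts on cytokine mRNAs, and its means did not separate the genotypes. The PS19 mice m677, m668, m665 and m659 had 29.8, 29.9, 26.2 and 33.5 CPM. The Adrb1+/m;PS19 mice m671, m661, m660 and m658 had 26.8, 27.2, 31.7 and 34.4 CPM. The mutant mice fell to both sides of the PS19 mean, m671 and m661 below it and m660 and m658 above it. The means of 29.9 ± 2.96 and 30 ± 3.65 CPM gave a log2 fold change of 0.01 with a 95% interval from -0.20 to 0.22 (SE 0.0966; edgeR adjusted p = 0.9996; exact permutation p = 1.0).

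Among the 5 genes other than Mapk11, 0 had an unadjusted p under 0.05 in edgeR and 0 separated the genotypes, beside 2.80% and, for separation in either direction, 2.02% of all genes tested. DESeq2, limma-voom and every alternative fit run also gave 0 of these 5 genes at an unadjusted p under 0.05.

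To compare levels between the genes, CPM was divided by the exonic length in kilobases given in the count table (CPM per kb). Mapk14 was the most abundant at 21.7 ± 1.10 CPM per kb (SD over 8 mice; 20 to 23.5), followed by Mapk11 at 15.4 ± 1.59 (13.4 to 17.2). MK2 transcript Mapkapk2 was at 9.84 ± 1.01 CPM per kb (8.63 to 11.3). The activators Map2k3 and Map2k6 followed at 3.23 ± 0.51 and 2.91 ± 0.234 CPM per kb, and Mapk12 was the lowest at 1.64 ± 0.271. Mapk14 and Mapk11 were thus each measured above Map2k3 and Map2k6, but not above Map2k4, which encodes MKK4, an activator of JNK that can also phosphorylate p38 and is not among the 6 genes. Map2k4 was at 41.9 ± 1.48 CPM per kb (40.3 to 44.1).

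The order held in all 8 mice for 4 of its 5 neighbouring pairs. Mapk14 exceeded Mapk11 by 1.42-fold, Mapk11 exceeded Mapkapk2 by 1.56-fold, Mapkapk2 exceeded Map2k3 by 3.04-fold and Map2k6 exceeded Mapk12 by 1.77-fold, each in 8 of 8 mice. For each of these 4 pairs the exact sign-flip permutation p was 0.00781, the smallest that 8 mice allow, and 0.00977 after adjustment over the 5 pairs. The pairs that hold Mapk11 include the mutant values by which it was chosen, so their p-values were not free of that choice. Mapk14, Mapk11 and Mapkapk2 were at 21.7, 16.7 and 9.82 CPM per kb in PS19 mice, and at 21.7, 14.0 and 9.87 in mutant mice. Map2k3 and Map2k6 did not differ beyond their spread, with Map2k3 higher in 5 of 8 mice by 1.1-fold (exact sign-flip permutation p = 0.141). With coding length in place of exonic length, a choice made after seeing the data, the log2 difference of Mapk14 over Mapk11 was 1.12 instead of 0.50.

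**Figure D2:**
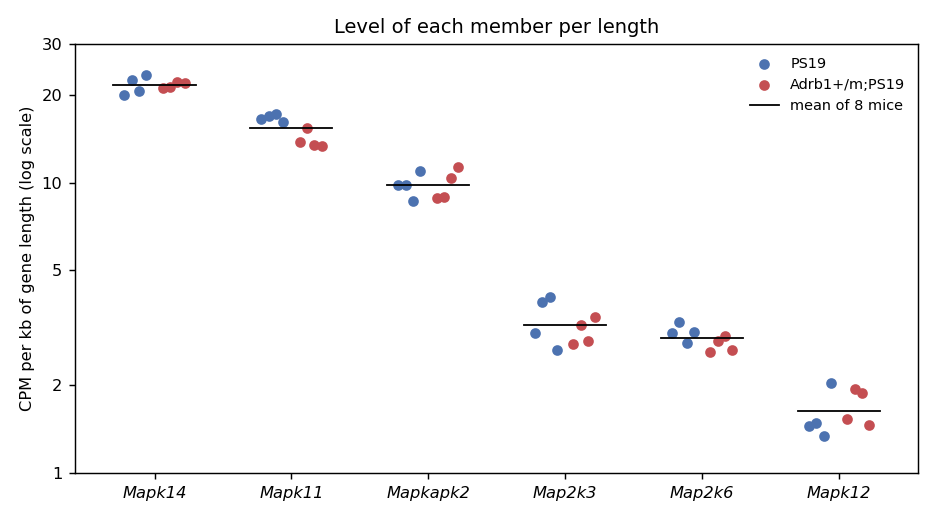
CPM per kb of exonic length for the 6 genes in each mouse, by genotype. Mapk14 (21.7 on average) and Mapk11 (15.4) lie above Mapkapk2 (9.84), Map2k3 (3.23), Map2k6 (2.91) and Mapk12 (1.64).

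Summed over the p38 isoforms per unit length, Mapk14 made up 53.6 ± 1.63% in PS19 mice and 57.6 ± 2.03% in Adrb1+/m;PS19 mice. The share of Mapk11 was 41.4 ± 2.41% and 37.1 ± 1.67%, with Mapk12 at 3.90 ± 0.637% and 4.51 ± 0.552%. Mapk11's share was 43.1, 41.0, 43.5 and 38.2% in the PS19 mice m677, m668, m665 and m659, and 37.5, 39.3, 35.7 and 36.0% in the mutant mice m671, m661, m660 and m658. PS19 mouse m659 therefore lay below mutant mouse m661, and the shares overlapped where the CPM did not. These shares rest on the Mapk11 counts that chose it and were not tested.

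None of the genes next to Mapk11 passed the test. Of 8 other genes within 50 kb, 6 passed the count filter, 0 had an unadjusted p under 0.05 in edgeR, and their log2 fold changes ran from -0.07 to 0.12. Plxnb2, a plexin receptor gene 5920 bases upstream of Mapk11, had 66.3 ± 4.53 CPM in PS19 mice and 69.7 ± 7.75 CPM in mutant mice (log2 fold change 0.07, SE 0.0786). Mapk12, on the other side, had a log2 fold change of 0.12, and the lysine deacetylase gene Hdac10 had -0.06 (SE 0.148). Tubgcp6, which encodes a component of the γ-tubulin ring complex, had -0.06 (SE 0.0775), the selenoprotein gene Selenoo -0.06 (SE 0.0951), and Dennd6b, which encodes a DENN domain protein, -0.07 (SE 0.0752). The miRNA genes Mir7118 and Mir6958 had 0 counts in every library. No listed gene overlapped Mapk11, Mapk12, Map2k3 or Map2k6, whereas AC170998.1 lies within Mapk14 (1 to 14 counts a library) and Gm37084 and Gm25549 lie within Mapkapk2 (0 to 14 and 0 to 4 counts).

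**Figure D3:**
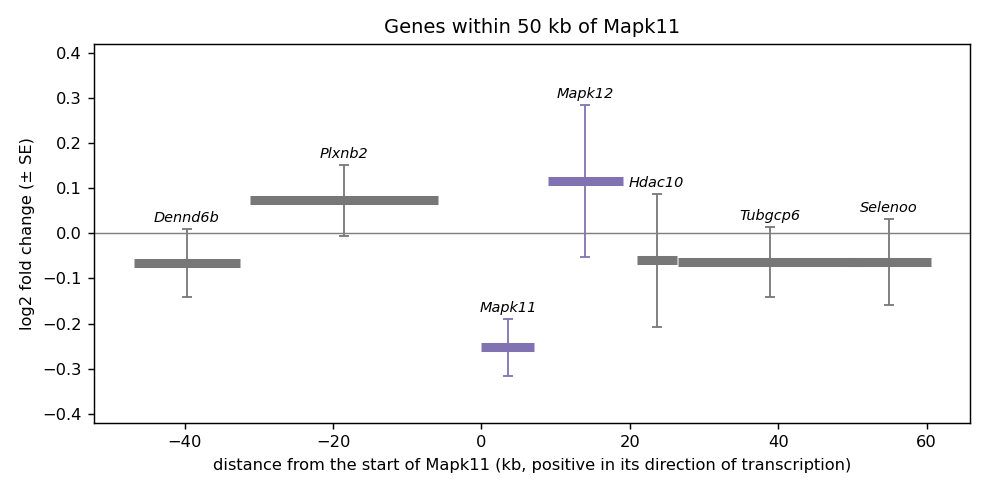
Log2 fold change ± SE, Adrb1+/m;PS19 over PS19, of the tested genes within 50 kb of Mapk11 against distance from its start. The other 6 tested genes lie between -0.07 and 0.12, and Mapk11, selected on these values, is at -0.25.

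The mice were also compared with each other within genotype, after centring log2 CPM on each genotype's mean. Over 15 pairs of the 6 genes, 0 correlations had an adjusted permutation p under 0.05, the smallest being 0.404, and r ran from -0.71 to 0.64. The highest was between Mapk14 and its target kinase Mapkapk2, with r = 0.64 (exact permutation p = 0.0469) and rho = 0.69 (exact permutation p = 0.0556), and r = 0.80 without m677 and m659. Mapk11 and Mapkapk2 ran the other way, with r = -0.71 (exact permutation p = 0.0538) and rho = -0.76 (exact permutation p = 0.0295), and r = -0.64 without m665 and m661. The neighbours Mapk11 and Mapk12 had r = 0.10 (exact permutation p = 0.84). Mapk11 and its activator gene Map2k6 had r = 0.64 before centring and 0.11 after it, a value that before centring holds the genotype difference by which Mapk11 was chosen.

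Mapk11 and Mapkapk2 were read beside the markers of microglia, the immune cells of the brain. The summed level of 11 microglial markers was 671.4, 512.2, 440.4 and 772.1 CPM in the PS19 mice m677, m668, m665 and m659, and 554.0, 420.3, 750.2 and 734.6 CPM in the Adrb1+/m;PS19 mice m671, m661, m660 and m658. The 3 mice with the highest sums, m659, m660 and m658, were also the 3 mice with the highest Mapkapk2. The same 3 mice had the highest sums of 8 astrocyte markers, 6183, 6244 and 6013 CPM against 5133 to 5928 CPM in the other mice, and Gfap, the marker of reactive astrocytes, was at 827, 838 and 752 CPM in them against 182 to 748 CPM. For Mapk11 the order was opposite in PS19 mice, where m665 had the lowest microglial sum and the highest Mapk11, and m659 the reverse. Among mutant mice m661 had the lowest sum and the highest Mapk11, but m658, not m660 with the highest sum, had the lowest Mapk11. The astrocyte sums ran a similar way. They were highest of the PS19 mice in m659 (6183 CPM) and lowest of the mutant mice in m661 (5181 CPM). The lowest PS19 astrocyte sum was in m668 (5133 CPM), not m665 (5139 CPM). The microglial sums overlapped between genotypes, 440 to 772 against 420 to 750 CPM, with 7 of the 11 markers higher and 4 lower, and 0 of 11 at an unadjusted p under 0.05. No microglial marker was at 0 in every mouse, and the part of microglial or astrocyte RNA in these values was not tested.

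**Figure D4:**
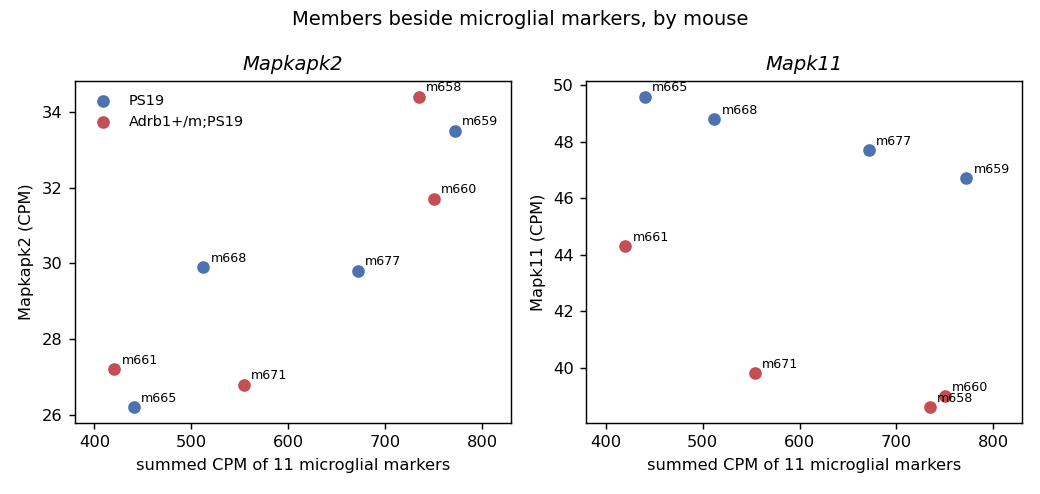
CPM of Mapk11 and of Mapkapk2 in each mouse against the summed CPM of 11 microglial markers, by genotype. Within each genotype the mouse with the lowest microglial sum (m665 and m661) has the highest Mapk11, and the 3 mice with the highest sums have the highest Mapkapk2.

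Markers of other cell types were read beside Mapk11, against 1.37% of all genes lower and 1.42% higher at an unadjusted p under 0.05. Cortical excitatory neuron markers were present in every mouse, at summed levels of 1680 to 1960 CPM in PS19 mice and 1570 to 1750 CPM in mutant mice, with 8 of 10 lower and 3 of 10 lower at an unadjusted p under 0.05 in edgeR. Basal forebrain cholinergic markers summed to 31.4 to 53.1 CPM in PS19 mice and 52.5 to 78.5 CPM in mutant mice, with 7 of 7 higher and 6 at an unadjusted p under 0.05. Striatal projection neuron markers summed to 977 to 1950 and 1020 to 2190 CPM, with 9 of 9 higher and 1 at an unadjusted p under 0.05, and choroid plexus markers to 24.6 to 369 and 27.3 to 582 CPM, with 0 of 5 at such a p. Of 10 interneuron markers 2 were higher (Gad2 and Slc32a1) and 2 lower (Npy and Vip) at an unadjusted p under 0.05, while their sums overlapped. None of these lists held a marker at 0 in every mouse. Their part in the Mapk11 difference was not tested. With 1 surrogate variable in the fit the log2 fold change of Mapk11 was -0.25, as without it. That fit used the counts by which Mapk11 was chosen, so nothing is read from it.

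By likeness over the 8 mice, in log2 CPM centred within genotype and among 10438 genes of at least 10 CPM, the genes closest to Mapk11 were Dido1 (r = 0.98), Zbtb34 (r = 0.976) and Tab1 (r = 0.969). Tab1 encodes a partner of TAK1 that can also bind p38α. Its level was 24.3 CPM and its log2 fold change between genotypes was 0.01, so it followed Mapk11 among mice of 1 genotype but was not lower with it in mutant mice. Closest to Mapk14 were Cct6a (r = 0.98), Clpp (r = 0.968) and Inpp5a (r = 0.947), and closest to Mapk12 were Pex13 (r = 0.993), Snap91 (r = 0.977) and Tnks1bp1 (r = 0.963). Map2k3 was most like Zfp780b (r = 0.982), Lrp1b (r = 0.976) and Kdm3a (r = 0.965), and Map2k6 most like Ttc4 (r = 0.959), Adcy6 (r = 0.937) and Psmb2 (r = 0.928). Mapkapk2 was most like Erc1 (r = 0.988), Notch2 (r = 0.987) and Bcl9 (r = 0.979). These values are the highest of 10438 over 8 points that share their libraries, and they carry no p.

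Around the 6 genes, 65 genes of the pathway and of its sister MAP kinase modules were measured, and all 65 were tested. Of these, 0 were higher and 2 lower in Adrb1+/m;PS19 mice at an unadjusted p under 0.05 in edgeR (3.08%), near the 2.80% of all genes. Their median log2 fold change was 0.00026, and over all genes tested it was 0.00046.

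Upstream of p38, 21 kinases, scaffolds and adaptors, Map2k4 among them, had 0 calls. Their log2 fold changes ran from -0.14 to 0.23, with a median of -0.032. The most abundant were Taok1, a kinase that activates MKK3 and MKK6, at 215 ± 18.3 and 225 ± 19.1 CPM (PS19 and mutant mice), and the mixed-lineage kinase gene Map3k10 at 216 ± 13.1 and 206 ± 14.9 CPM. Downstream, 16 kinases, transcription factors and other targets of p38 also had 0 calls, with log2 fold changes from -0.37 to 0.14 and a median of -0.014. The p38-regulated transcription factors Mef2c and Mef2d were at 699 ± 57.6 and 675 ± 53.0 CPM and at 256 ± 20.5 and 250 ± 10.6 CPM. None of these 4 genes passed the test, and their genotypes overlapped. Elsewhere in the upstream list, Taok2, Taok3 and Map3k11 separated the genotypes without a call. Taok2 (157 to 165 and 147 to 156 CPM) and Taok3 (61.6 to 65.5 and 49.8 to 61.1 CPM) were lower in mutant mice. Map3k11 was higher (28.6 to 30.5 and 30.6 to 32.4 CPM). Of all genes tested, 2.02% separated the genotypes in either direction.

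Both calls were dual-specificity phosphatases, enzymes that remove the activating phosphates from MAP kinases. They were among 11 phosphatases that can act on p38 (0 higher, 2 lower, 18.2%, median log2 fold change 0.037). Of all genes tested, 2.80% were called in either direction and 1.37% were called lower. The 18.2% rests on 2 genes of a list of 11, and neither passed after adjustment. Dusp4 was at 14.1, 13.8, 13.7 and 14.0 CPM in the PS19 mice m677, m668, m665 and m659, and at 13.0, 10.8, 7.67 and 12.0 CPM in the Adrb1+/m;PS19 mice m671, m661, m660 and m658. Every mutant mouse lay below every PS19 mouse, with m660 the lowest by far. Of all genes tested, 1.0% separated the genotypes in this direction. The log2 fold change of Dusp4 was -0.36 (SE 0.137; edgeR unadjusted p = 0.0206, adjusted p = 0.9996), and without m660 the call was lost. Its spread in PS19 mice, 1.44%, was below the 6.77% that counting alone gives.

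Dusp10, a phosphatase that prefers p38 and JNK over ERK, was at 8.39, 5.45, 7.22 and 8.31 CPM in the PS19 mice m677, m668, m665 and m659. It was at 6.6, 5.65, 5.54 and 5.49 CPM in the Adrb1+/m;PS19 mice m671, m661, m660 and m658. PS19 mouse m668 had the lowest level of all, so the genotypes overlapped. The log2 fold change of Dusp10 was -0.34 (SE 0.156; edgeR unadjusted p = 0.0485, adjusted p = 0.9996), and the call was lost in DESeq2, in limma-voom, with at least 10 counts in every mouse, among protein-coding genes alone, and without m677, m665, m659, m661, m660 or m658. The most abundant phosphatase genes, Ppm1a at 313 ± 11.8 and 315 ± 14.4 CPM and Ptpn5, the striatal-enriched tyrosine phosphatase, at 254 ± 36.0 and 263 ± 29.3 CPM, did not pass the test.

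The sister modules had 0 calls. The 9 genes of the ERK module ran from -0.12 to 0.12 in log2 fold change (median 0.018), with the activating kinase gene Map2k1 (MEK1) at 260 ± 22.1 and 263 ± 13.7 CPM. The 7 genes of the JNK module ran from -0.04 to 0.07, with the neuronal kinase gene Mapk10 (JNK3) at 410 ± 14.9 and 400 ± 18.2 CPM and the scaffold gene Mapk8ip3 at 518 ± 18.4 and 508 ± 5.24 CPM.

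**Figure D5:**
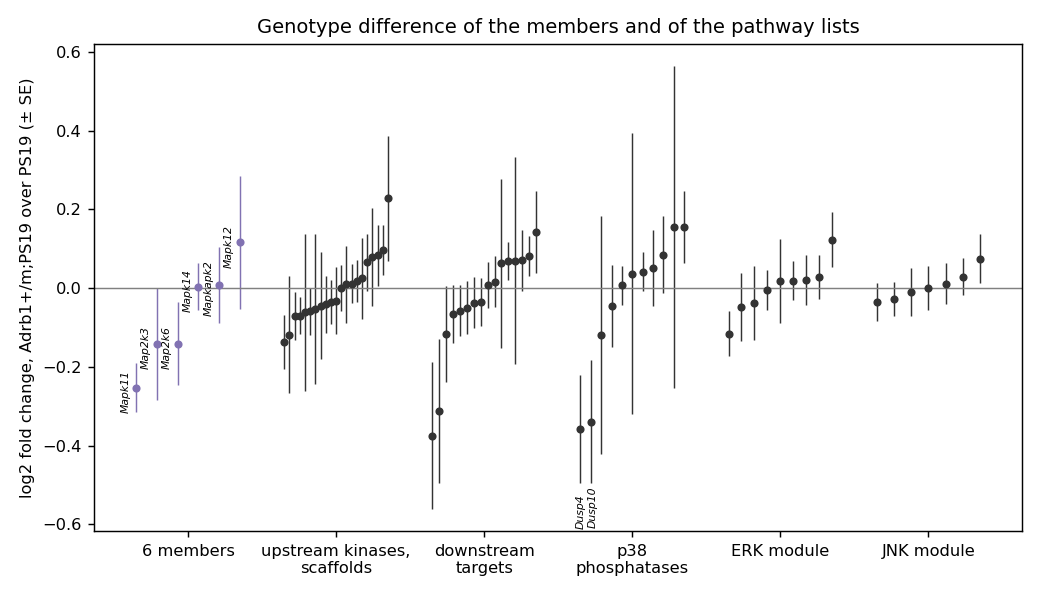
Log2 fold change ± SE, Adrb1+/m;PS19 over PS19, of each of the 6 genes and of each gene of the upstream, downstream, phosphatase, ERK and JNK lists, in order within each list. Dusp4 and Dusp10 are the only listed genes with an unadjusted p under 0.05, and Mapk11 was selected on these values.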

How the data were processed

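Paired-end reads of 150 nt from cortex of 8 mice were aligned to GRCm38 (mm10) with HISAT2 2.0.5 and assigned to genes with featureCounts 1.5.0-p3, per the submitters' processing notes and the study's methods, which also name DESeq2 1.20.0. Strand and multimapping settings were not given in the sources used here. The deposited table holds raw read counts per gene, not normalized by the authors, with coordinates and exonic gene length; gene length served to give levels per kilobase.

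Groups followed the labels. Counts were filtered (filterByExpr), TMM-scaled and tested in edgeR 4.0.16 by the quasi-likelihood test over all 8 mice without covariates, with Benjamini-Hochberg adjustment over 17195 genes. The study's methods name littermate controls, but the labels give no litter, so litter was not modelled. The step was tested on simulated data. Single values were compared by two-sided exact permutation over mice. Replicate libraries differed by more than counting noise (chi-square per degree of freedom 4.82 to 10.1), so none was counted as a duplicate. Depth limits precision: counting error alone is 2.44% for Mapk14 and 9.5% for Mapk12. Alternatives were DESeq2 1.42.0, limma-voom (limma 3.58.1), DESeq2 size factors, other filters, 1 surrogate variable (sva 3.50.0), leaving out each mouse, and, for levels, coding length.

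The genes described and all gene lists were chosen with earlier results of these data known. Named genes were the 6 genes and Mapk13, the called and the 2 most abundant genes of each pathway list, every gene within 50 kb of Mapk11, and the 3 genes most like each of the 6. The values of 1 gene that this rule names are not reported here. Map2k4, Taok2, Taok3, Map3k11, Gfap and the called interneuron markers were named after their values were seen. Promoter sequences came from RefSeq (GRCm38.p6), and all 6 genes matched. Astrocyte, oligodendrocyte, endothelial and interneuron markers were also summed: 5130 to 6180, 5070 to 6780, 212 to 255 and 1330 to 1410 CPM in PS19 mice and 5180 to 6240, 5340 to 6340, 218 to 264 and 1330 to 1460 CPM in mutant mice.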

Additional observations from a re-analysis of the deposited data

How the results depend on the processing

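The log2 fold change of Mapk11 lay between -0.30 and -0.23 in all 15 alternatives. These reuse the counts by which Mapk11 was chosen, so its steady value is no support for the difference. Map2k3, Map2k6 and Mapk12 kept their sign in all 15. Their log2 fold changes ran from -0.25 to -0.04, from -0.18 to -0.1 and from 0.04 to 0.26, in that order. Mapk14, near 0, lay between -0.03 and 0.04 when each mouse was left out in turn, negative without m677, m665, m660 or m658. Mapkapk2, also near 0, was at -0.01 with 1 surrogate variable and between -0.06 and 0.07 when each mouse was left out, negative without m665, m660 or m658. Neither gene passed the test in any fit.

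An unadjusted p under 0.05 was reached by 1366 genes with no filter beyond 1 count, where 33614 genes were tested, of which 66 passed after adjustment, none from the pathway lists. Without m661 or m658 the adjusted calls were 1 and 2, none from the lists. Of the pathway genes, 1 (Dusp4) had an unadjusted p under 0.05 in DESeq2, in limma-voom, with at least 10 counts in every mouse and for protein-coding genes alone, and 0 (without m660) to 3 had one when each mouse was left out. Without centring within genotype, r was -0.20 for Mapk11 and Mapk12 and 0.13 for Map2k3 and Map2k6, opposite in sign to the centred values. The cause was not tested for these changes.

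No paired analysis was possible because the study's methods name littermate controls but nothing in the labels says which mice shared a litter, so litter was not modelled. A comparison of levels with lengths from a protein table was not run, and coding length from the gene annotation, chosen after seeing the data, stood in its place. Mapk12, Map2k3 and Map2k6 rest on about 111 to 190 counts a library.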
